A study of Mus musculus with 106 samples.

Results

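Parvalbumin (PV) and somatostatin (SST) neurons of the cerebrum of control mice were compared across genes, from ribosome-bound mRNA. The libraries were those labelled with the control genotype, the cerebrum and a RiboTag immunoprecipitation (IP), for the cell types PV and SST. These rules took 11 of the 106 libraries of the series, 6 PV and 5 SST, each from a different mouse. The study used knock-in mice to read the ribosome-bound mRNA of defined neuron classes in a model of Huntington's disease (HD). In RiboTag mice, Cre recombinase switches the endogenous ribosomal protein gene *Rpl22* to a form with a hemagglutinin (HA) tag, and anti-HA antibody pulls down ribosomes from the Cre-expressing cells. Control mice were Hdh Q7/Q7 and HD mice Hdh Q7/Q200, the latter with an expanded CAG repeat in the mouse huntingtin gene, and both carried the Rpl22-HA allele on a 129S4 background. The PV mice bore the PV-IRES-Cre knock-in and were taken at 9 months, and duplicate IPs of a PV mouse were pooled. The Cre line and age of the SST mice are not described in the sources used here. Cerebrum meant the brain without cerebellum and olfactory bulb, so any cell with Cre activity in forebrain, midbrain or brainstem could contribute.

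Beside these 11 libraries, total RNA from homogenates of the same lines (3 PV-line and 4 SST-line control libraries) and the PV and SST IPs of HD mice (5 and 4 libraries) were used for comparison. Totals on mouse genes were 35551118, 30321382, 23256772, 33526163, 47869606 and 29328167 counts in PV replicates 1 to 6 and 31514492, 30112926, 40913897, 30536348 and 28527927 in SST replicates 1, 2, 3, 4 and 6. Total RNA libraries held 24279938 to 47574064 counts, and HD IP libraries 30868911 to 107753586. Levels are counts scaled to a common library total (CPM) after trimmed-mean (TMM) normalization among the libraries of each comparison. For PV the lowest, the median and the highest of the 6 libraries are given, and for SST all 5 values in the order of the replicate numbers. The most abundant member of a list is the one with the highest mean CPM per kilobase (kb) of exon over both groups. Differences are log2 of PV over SST, so that positive values mean higher in PV. A gene was called at an adjusted p of 0.05 or less in edgeR's quasi-likelihood test over all genes tested.

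Several libraries stood apart before any gene was compared. Y-linked genes had counts in PV 1, PV 2, SST 1 and SST 2 and were near 0 in the other 7 libraries, so both groups held mice of both sexes. The 4 sex-linked genes tested were not called in edgeR's test (median -0.02). The mice of SST 1 and SST 2 have codes that begin with BR and those of the other SST libraries codes that begin with Z, while all PV mice have BP codes. What these letters stand for is not stated, and sex and code cannot be told apart among the SST libraries, nor code and cell type between the groups. On the first principal component of the 500 most variable genes (48.2% of variance), PV libraries scored 10.02 to 13.1 and SST libraries -17.7 to -11.6. The second component (15.8%) set PV 6 at -14.7 and SST 3 at -14.03 apart from the rest, which lay between -4.595 and 9.66. *Pcp2*, a Purkinje cell gene of the cerebellum, chosen after its values were seen, read 0.561, 90.4, 1.08, 17.7, 3.25 and 44.6 CPM in PV 1 to PV 6 and 0.122, 1.69, 0.487, 1.98 and 0.651 CPM in SST libraries. PV 2 was highest, and it also held 269.9 CPM of *Car8*, another gene abundant in Purkinje cells and likewise chosen after its values were seen. *Gabra6*, a granule cell gene chosen in the same way, read 0.0885, 29.3, 0.609, 3.48, 0.867 and 2.89 CPM in PV 1 to PV 6 and 0.857, 7.67, 0.974, 7.04 and 4.79 CPM in SST libraries.

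PV and SST neurons are the main classes of inhibitory interneuron that arise from the medial ganglionic eminence. PV basket and chandelier cells fire fast, brief spikes at high rates and inhibit the soma, the proximal dendrites and the axon initial segment of their targets. SST cells, among them the Martinotti cells of cortex, inhibit distal dendrites, adapt as they fire, and release somatostatin and other peptides. Outside cortex and hippocampus, both markers also occur in striatum, thalamic reticular nucleus, hypothalamus and brainstem.

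The genes that name the groups set them apart in the directions of their labels. *Pvalb*, which encodes the calcium buffer parvalbumin (ENSMUSG00000005716.16, chromosome 15, 78191114 to 78206400, GRCm38), had a median of 723 CPM in PV libraries (lowest 533, highest 830.1) against 189, 174, 206, 141 and 125 CPM in SST libraries. It was 4.298-fold higher in PV (log2 difference 2.10 ± 0.15 (SE), adjusted p = 5.33e-07). *Sst*, the somatostatin precursor gene (ENSMUSG00000004366.4, chromosome 16, 23889573 to 23890958), lay between 79.4 and 158 CPM across PV libraries, with a median of 112, and at 1661, 1631, 1702, 1698 and 966 CPM across SST libraries. It was 13.4-fold higher in SST (log2 difference -3.75 ± 0.19 (SE), adjusted p = 2.13e-08). Neither gene overlapped between groups, and SST 6, the lowest SST library for both, still held more *Sst* than any PV library. Each of the pair was also detected in the other group's libraries, at levels whose source was not tested. *Rpl22*, the tagged ribosomal protein gene, stood at 85.3, 53.3, 62.8, 54.9 and 54.5 CPM in SST libraries and between 48.8 and 71.9 CPM, median 61.5, in PV libraries, and did not pass the test (log2 difference -0.01, adjusted p = 0.976). In these bulk IPs, fewer cells of a type and less RNA per cell cannot be told apart.

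Of 14596 protein-coding genes tested in the control IPs, 2635 (18.1%) were called, 1439 higher in PV (9.86%) and 1196 higher in SST (8.19%). With at least a 2-fold difference as well, 535 (3.67%) were called, 253 higher in PV (1.73%) and 282 higher in SST (1.93%). Most differences were modest: the median size among called genes was 0.63 on the log2 scale. Differences of at least 4-fold were found in 51 genes higher in PV and 54 higher in SST. PV and SST libraries did not overlap for 1628 of the called genes, and for 1790 (12.3%) of all genes tested. The median over all genes tested was -0.03. Without PV 2, PV 4 and PV 6, the libraries with over 10 CPM of *Pcp2*, 1176 genes were called, 1146 of them also among the 2635 and all of those in the same direction. With library totals as the scaling the split was the reverse, with 1026 higher in PV and 1851 higher in SST. With the replicate number as a block, a pairing of mice that the labels do not state, 828 were called, 826 of them among the 2635 and in the same direction. Without the 4 libraries with Y-linked counts 1870 were called, and without PV 6 and SST 3, 2912. Of the 175 called genes named in this text, 67 were not called with the block. Without the *Pcp2* libraries (alternative *Pcp2*) 45 were not called, without those with Y-linked counts (Y) 45, without the SST libraries of Z mice (Z) 32 and without those of BR mice (BR) 24. Genes not called when these libraries were left out are given in the paragraphs below, mostly at the end with the alternatives in parentheses. *Cartpt* and *Sdhd*, named only for their promoters, are not. Losses with the block are not marked there, apart from those of *Nos1*, *Scn8a*, *Nsf* and *Rims3*.

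**Figure D1:**
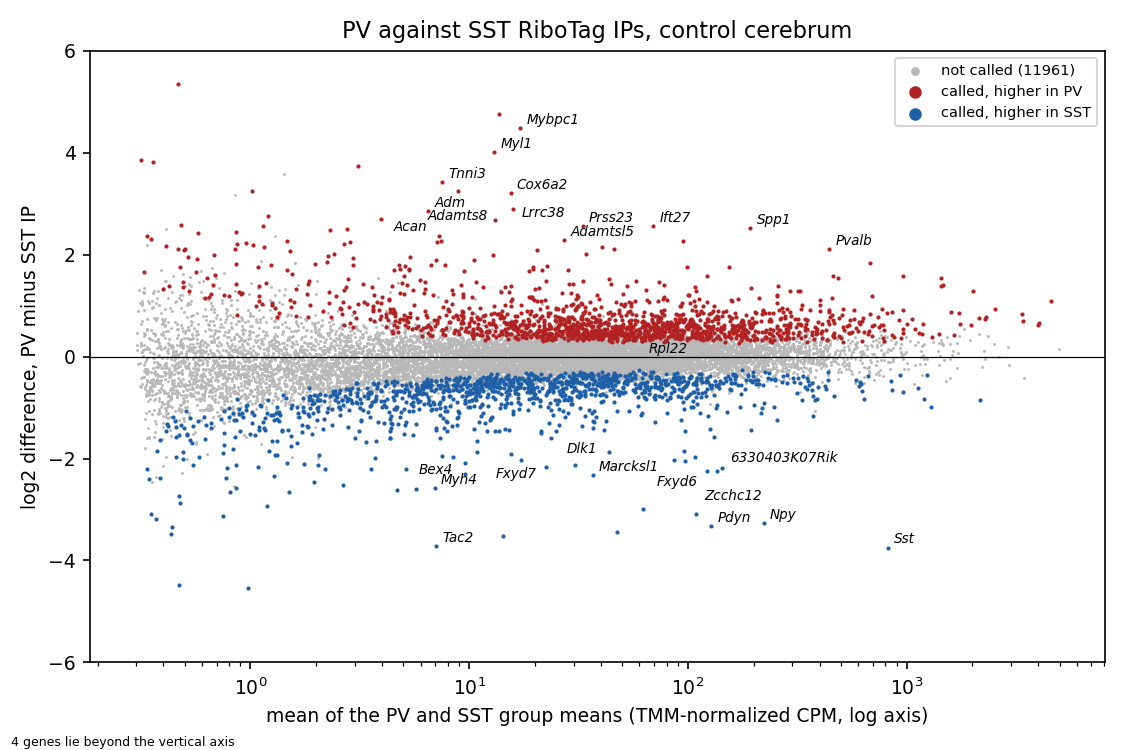
Each point is a gene tested in the control IPs, with the mean of the group means (TMM-normalized CPM, log axis) against the log2 difference, PV minus SST. Of 14596 genes, 1439 were called higher in PV (red) and 1196 higher in SST (blue), and *Pvalb*, *Sst*, *Rpl22* and the 12 genes with the largest differences in each direction by the rule for named genes are labelled, while 4 genes lie beyond the vertical axis and unlabelled outlying points include genes with overlap between the groups such as *Pcp2*.

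Among abundant genes without overlap, the largest difference toward PV was in *Mybpc1*, which encodes a myosin-binding protein of slow muscle. *Mybpc1* ranged from 27.2 to 41.8 CPM in PV libraries (median 32.3) and measured 0.949, 1.66, 1.85, 2.35 and 0.479 CPM in SST libraries (log2 difference 4.48 ± 0.29 (SE), adjusted p = 2.19e-07). *Myl1*, a skeletal muscle myosin light chain gene, had a median of 23.2 CPM in PV libraries (lowest 20.8, highest 30.2) against 1.53, 1.096, 1.802, 1.74 and 1.37 CPM in SST libraries (log2 difference 4.02 ± 0.17 (SE), adjusted p = 7.5e-09). *Tnni3*, the cardiac troponin I gene, lay between 10.5 and 18.3 CPM across PV libraries, with a median of 13.5, and at 1.78, 1.89, 1.17, 1.04 and 0.548 CPM across SST libraries (log2 difference 3.42 ± 0.27 (SE), adjusted p = 1.08e-06). Next came *Cox6a2*, the muscle-type subunit of cytochrome c oxidase, which stood at 3.67, 2.96, 3.97, 3.59 and 0.822 CPM in SST libraries and between 21.2 and 32.6 CPM, median 29.7, in PV libraries (log2 difference 3.21 ± 0.29 (SE), adjusted p = 3.58e-06). For each of these 4 genes the PV libraries lay close together and far above every SST library.

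*Lrrc38*, an auxiliary subunit of BK potassium channels, ranged from 22.3 to 33.7 CPM in PV libraries (median 27.97) and measured 4.16, 3.85, 4.602, 4.39 and 1.68 CPM in SST libraries (log2 difference 2.90 ± 0.22 (SE), adjusted p = 7.63e-07). *Adm*, the precursor of the vasodilator peptide adrenomedullin, had a median of 11.9 CPM in PV libraries (lowest 8.75, highest 13.3) against 1.16, 1.53, 1.83, 1.31 and 2.05 CPM in SST libraries (log2 difference 2.85). The secreted phosphoprotein osteopontin is encoded by *Spp1*, which lay between 260.4 and 414 CPM across PV libraries, with a median of 323, and at 53.8, 79.6, 50.03, 45.9 and 55.9 CPM across SST libraries (log2 difference 2.53). SST 6 had the lowest *Lrrc38* of all libraries. *Adamts8*, a secreted metalloprotease, stood at 1.898, 4.05, 4.58, 4.896 and 2.16 CPM in SST libraries and between 19.1 and 25.97 CPM, median 22.6, in PV libraries (log2 difference 2.69 ± 0.23 (SE), adjusted p = 2.25e-06). *Acan*, the aggrecan core protein of perineuronal nets, ranged from 10.4 to 14.5 CPM in PV libraries (median 12.2) and measured 2.08, 3.12, 2.31, 2.92 and 1.37 CPM in SST libraries (log2 difference 2.38 ± 0.19 (SE), adjusted p = 1.48e-06). *Adamtsl5*, a secreted relative of the ADAMTS proteases, differed by 2.28 and the serine protease gene *Prss23* by 2.56, each on the log2 scale and each without overlap.

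Another of these 12 genes lies beside the PV driver gene. *Ift27*, a gene of intraflagellar transport (chromosome 15, 78159463 to 78174107), is on the same strand as *Pvalb* and 17006 bases from it. It had a median of 118 CPM in PV libraries (lowest 83.6, highest 142) against 22.2, 21.4, 22.7, 22.5 and 11.9 CPM in SST libraries (log2 difference 2.56 ± 0.18 (SE), adjusted p = 4.68e-07). In PV mice the Cre cassette sits in the *Pvalb* locus, and reads running on past *Pvalb* or a change at the modified locus were not tested. In total RNA *Ift27* read 34.7, 30.6 and 52.1 CPM in the PV line and 38.5, 30.8, 31.7 and 27.6 CPM in the SST line.

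In the other direction *Sst* was followed by *Tac2*, the neurokinin B precursor gene, which lay between 0.635 and 1.52 CPM across PV libraries, with a median of 0.939, and at 15.9, 14.4, 12.9, 10.3 and 11.95 CPM across SST libraries (log2 difference -3.72 ± 0.23 (SE), adjusted p = 1.56e-07). *Pdyn*, the prodynorphin gene, stood at 177, 238, 278, 298 and 175 CPM in SST libraries and between 18.6 and 29.4 CPM, median 23.5, in PV libraries (log2 difference -3.32 ± 0.17 (SE), adjusted p = 2.86e-08). *Npy*, which encodes neuropeptide Y, ranged from 26.1 to 54.1 CPM in PV libraries (median 45.3) and measured 442, 416, 423, 462 and 269 CPM in SST libraries (log2 difference -3.26 ± 0.22 (SE), adjusted p = 2.28e-07). All 3 were higher in every SST library than in any PV library, and SST 6 was the lowest SST library for *Npy* and *Pdyn*. *Dlk1*, a membrane-bound Notch-related ligand gene, had a median of 11.2 CPM in PV libraries (lowest 9.101, highest 14.6) against 63.7, 51.2, 43.4, 47.8 and 42.9 CPM in SST libraries (log2 difference -2.13 ± 0.14 (SE), adjusted p = 2.28e-07).

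Further genes were higher in SST. *Fxyd6* and *Fxyd7* encode single-pass regulators of the sodium pump. *Fxyd6* lay between 30.5 and 61.5 CPM across PV libraries, with a median of 41.6, and at 231, 190.0, 221, 215 and 155 CPM across SST libraries (log2 difference -2.24 ± 0.17 (SE), adjusted p = 8.59e-07), and *Fxyd7* differed by -2.18 on the log2 scale. *Marcksl1*, an actin-regulating relative of MARCKS, stood at 80.9, 63.7, 60.1, 56.2 and 45.5 CPM in SST libraries and between 10.2 and 16.2 CPM, median 11.7, in PV libraries (log2 difference -2.33 ± 0.16 (SE), adjusted p = 2.31e-07). *Bex4* (log2 difference -2.30) and *Zcchc12* (-2.25) followed, with *6330403K07Rik* (-2.19), whose function is not given here. *Myh4*, a fast muscle myosin heavy chain gene, ranged from 1.57 to 3.07 CPM in PV libraries (median 1.87) and measured 4.22, 7.58, 17.02, 19.4 and 11.3 CPM in SST libraries (log2 difference -2.58). Myosin heavy chain genes are close paralogs and may share reads. Each of these genes was without overlap between the groups.

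**Figure D2:**
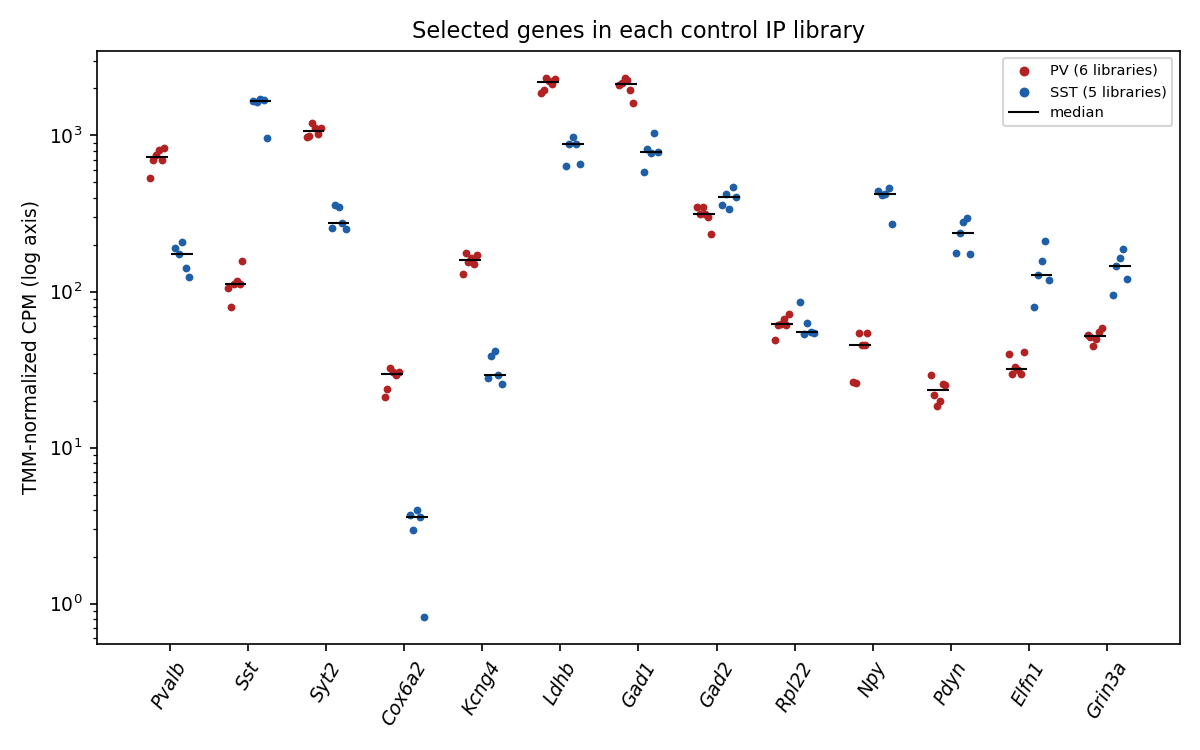
Each dot is the level of a gene in a control IP library (TMM-normalized CPM, log axis), PV in red (6 libraries) and SST in blue (5), with black bars at the group medians. *Pvalb*, *Syt2*, *Cox6a2*, *Kcng4*, *Ldhb* and *Gad1* separate upward in PV, *Sst*, *Npy*, *Pdyn*, *Elfn1* and *Grin3a* upward in SST, and *Gad2* and *Rpl22* were not called.

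Of 21 genes used as markers of PV interneurons, all tested, 18 were called and each of these was higher in PV. Their median log2 difference was 1.25, against -0.03 over all genes tested. The share of all genes tested that was called was 9.86% higher in PV and 8.19% higher in SST, and whether a list held more calls than other genes was not tested. This list and the others were drawn up with earlier results of these data known, so their counts are no separate test. *Syt2*, the fast calcium sensor of vesicle release at PV cell synapses, had a median of 1066 CPM in PV libraries (lowest 970.4, highest 1195) against 256, 359, 349, 276 and 249.8 CPM in SST libraries (log2 difference 1.84 ± 0.12 (SE), adjusted p = 2.28e-07). *Pthlh*, the parathyroid hormone-like hormone gene, lay between 10.7 and 17.3 CPM across PV libraries, with a median of 14.5, and at 3.704, 4.49, 5.19, 4.09 and 4.97 CPM across SST libraries (log2 difference 1.68 ± 0.15 (SE), adjusted p = 3.57e-06). *Ank1*, which links membrane proteins to the spectrin skeleton, stood at 92.7, 168, 212, 218 and 159 CPM in SST libraries and between 379 and 460.4 CPM, median 418, in PV libraries (log2 difference 1.29 ± 0.18 (SE), adjusted p = 0.000189). These groups did not overlap, whereas those of *Erbb4*, the neuregulin receptor of interneurons, did. *Erbb4* ranged from 65.97 to 171 CPM in PV libraries (median 154) and measured 57.2, 72.8, 32.6, 53.1 and 87.8 CPM in SST libraries (log2 difference 1.20 ± 0.26 (SE), adjusted p = 0.00451); PV 6 and SST 3 were the lowest of their groups. *Ppargc1a*, a coactivator of mitochondrial genes, had a log2 difference of 0.73 (adjusted p = 0.0134). Not called were *Tac1* (-0.13), *Mef2c* (0.16) and *Plcxd3* (0.78). *Erbb4* (Y) and *Ppargc1a* (Z, BR, Y) lost the call.

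Of 21 markers of SST interneurons, 16 were called, each higher in SST, against 8.19% of all genes tested (list median -0.97). *Chodl*, a marker of the long-range SST cells, had a median of 1.304 CPM in PV libraries (lowest 1.08, highest 1.69) against 8.17, 8.54, 6.28, 8.89 and 8.29 CPM in SST libraries (log2 difference -2.63 ± 0.17 (SE), adjusted p = 1.84e-07). *Elfn1*, the postsynaptic protein that makes excitatory inputs onto SST cells facilitate, lay between 29.6 and 40.7 CPM across PV libraries, with a median of 32.02, and at 79.2, 127, 157, 212 and 119 CPM across SST libraries (log2 difference -2.03 ± 0.20 (SE), adjusted p = 8.47e-06). *Grin3a*, an NMDA receptor subunit gene, stood at 94.4, 146, 164, 188 and 120.2 CPM in SST libraries and between 44.4 and 58.4 CPM, median 52.02, in PV libraries (log2 difference -1.46 ± 0.15 (SE), adjusted p = 1.57e-05). SST 4 was the highest library for all 3 genes. *Crhbp*, a binding protein of corticotropin-releasing hormone, ranged from 58.8 to 81.6 CPM in PV libraries (median 73.9) and measured 98.4, 157, 153, 186 and 104 CPM in SST libraries (log2 difference -0.99 ± 0.16 (SE), adjusted p = 0.000747). *Hpse*, the heparanase gene, had a log2 difference of -1.54, and *Rbp4*, a retinol carrier gene, of -1.28. Genes of narrower SST classes differed as well: *Chrna2*, a nicotinic receptor subunit of deep-layer Martinotti cells, by -0.95, *Myh8* by -1.33 and *Cort*, the cortistatin gene, by -0.97. *Calb1* (log2 difference -0.52, adjusted p = 0.236) was not called, and its highest PV library, PV 2 at 337 CPM, was also the library with the most *Pcp2*. *Satb1*, *Nr2f2* and *Moxd1*, at -0.36, -0.30 and -0.08, were not called either. *Calb1* was called without PV 2 (adjusted p down to 0.00203), and *Nr2f2* was called without SST 3 (adjusted p down to 0.0169). *Chrna2* (Y, *Pcp2*), *Myh8* (Z) and *Cort* (Z) lost the call.

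*Gad1*, the main GABA-synthesizing enzyme gene, had a median of 2136 CPM in PV libraries (lowest 1606, highest 2344) against 582, 818, 771, 1029.8 and 786 CPM in SST libraries (log2 difference 1.38 ± 0.14 (SE), adjusted p = 1.15e-05). *Gad2*, which encodes the other enzyme, lay between 234 and 349 CPM across PV libraries, with a median of 314, and at 361, 420.2, 336, 466 and 405 CPM across SST libraries, and was not called (log2 difference -0.36, adjusted p = 0.0518). PV libraries were thus above every SST library for *Gad1* alone of this pair. *Slc32a1*, the vesicular GABA transporter gene, stood at 233, 386, 440.0, 474 and 281 CPM in SST libraries and between 546 and 699.5 CPM, median 610.1, in PV libraries (log2 difference 0.76 ± 0.16 (SE), adjusted p = 0.00515). Of the 27 genes of GABAergic identity and medial ganglionic eminence origin, 3 were called higher in PV, 4 were called higher in SST and 20 were not called. Over all genes tested 9.86% were called higher in PV and 8.19% higher in SST, and the list median was -0.10. The 4 higher in SST were transcription factor genes. *Npas1* ranged from 9.59 to 14.7 CPM in PV libraries (median 11.2) and measured 21.98, 32.9, 45.3, 51.04 and 26.4 CPM in SST libraries (log2 difference -1.60 ± 0.20 (SE), adjusted p = 9.24e-05), and *Dlx6* (-0.61) was the next, followed by 2 others. *Lhx6*, the factor of cells from that eminence, had a median of 76.96 CPM in PV libraries (lowest 66.5, highest 89.1) against 85.8, 96.2, 112, 142 and 71.5 CPM in SST libraries, without a call (adjusted p = 0.0825). Without PV 4, PV 5 or SST 4, 2 were called higher in SST. *Gad2* was called without PV 1 or SST 1 or 3 (adjusted p down to 0.0352), and *Lhx6* was called without SST 6 (adjusted p down to 0.019). *Slc32a1* (*Pcp2*) and *Dlx6* (BR, Y, *Pcp2*) lost the call.

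Of 16 markers of other interneuron classes, 1 was called higher in PV and 5 higher in SST, against 9.86% and 8.19% of all genes tested (median -0.24). *Crh*, the corticotropin-releasing hormone gene, lay between 2.05 and 5.63 CPM across PV libraries, with a median of 3.53, and at 13.2, 18.01, 15.4, 13.6 and 17.2 CPM across SST libraries (log2 difference -2.09 ± 0.22 (SE), adjusted p = 1.43e-05). *Vip*, the gene of vasoactive intestinal peptide, stood at 11.1, 5.35, 5.65, 6.67 and 9.04 CPM in SST libraries and between 2.53 and 4.45 CPM, median 3.73, in PV libraries (log2 difference -1.07). *Reln* (-1.11), *Th* (-0.65) and *Calb2* (-0.49) completed the 5, and *Lamp5*, a gene of neurogliaform cells, was higher in PV (0.52) and the most abundant of the list per length, at 72.6 CPM per kb in PV and 50.6 in SST. Without SST 6, 2 were called higher in PV. Among 15 genes of glutamatergic neurons, *Tcf7l2* (-1.26), a transcription factor gene of thalamus, and *Fezf2* (-0.50) were called, both higher in SST (list median -0.26). Without SST 1, 1 was called higher in PV. Without PV 2, PV 3, PV 4, PV 5, SST 3 or SST 6, 1 was called higher in SST. *Slc17a7*, the vesicular glutamate transporter gene of cortex, ranged from 843 to 1098 CPM in PV libraries (median 931) and measured 916, 1015, 1043, 881 and 684 CPM in SST libraries, and was not called. Of 12 genes of striatal projection neurons, 8 were called higher in SST (median -0.66), and 2 to 8 across the alternatives. The summed level of the 12 averaged 560 CPM in PV IPs, 1086 in SST IPs, 1681 in PV-line and 1549 in SST-line total RNA. Total RNA was scaled apart from the IPs. In the fit with both preparations given below, 2 members were called beyond total RNA, both toward SST. The part of other cells' RNA in these differences was not tested. *Penk*, the enkephalin precursor gene, had a median of 64.7 CPM in PV libraries (lowest 55.3, highest 86.04) against 220.3, 233, 215, 172 and 147 CPM in SST libraries (log2 difference -1.58 ± 0.14 (SE), adjusted p = 4.27e-06). With *Pdyn* it was the only member of this list without overlap, and *Drd2* (-0.68), *Adora2a* (-0.79) and *Ppp1r1b* (-0.78) differed less. *Drd1* (-0.09) and *Tac1* were not called. *Th* was not called without PV 4 (adjusted p up to 0.0557), and *Calb2* was not called without SST 2 (adjusted p up to 0.0518). *Fezf2* was not called without PV 2, 3, 4 or 5 or SST 3 or 6 (adjusted p up to 0.0741). *Vip* (*Pcp2*), *Reln* (Z, *Pcp2*), *Th* (Z, *Pcp2*), *Calb2* (BR, Y, *Pcp2*), *Lamp5* (Z), *Fezf2* (Z, *Pcp2*), *Drd2* (Y), *Adora2a* (Y) and *Ppp1r1b* (BR, Y) lost the call.

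Genes of neurons outside the telencephalon were called in both directions, as were all genes tested (9.86% higher in PV and 8.19% higher in SST). Of 31 genes of midbrain, hindbrain and glycinergic neurons, 8 were called higher in PV and 2 higher in SST, with a median of 0.37 (0.19 without SST 4 and 0.06 without the SST libraries of Z mice). *Slc6a5*, the glycine transporter gene that defines glycinergic terminals, lay between 88.3 and 144 CPM across PV libraries, with a median of 105, and at 47.3, 58.7, 37.7, 21.4 and 47.9 CPM across SST libraries (log2 difference 1.399 ± 0.22 (SE), adjusted p = 0.000541). *Sox14*, a transcription factor gene of midbrain and thalamic interneurons, stood at 0.765, 0.698, 1.51, 1.48 and 0.308 CPM in SST libraries and between 2.98 and 4.92 CPM, median 3.84, in PV libraries (log2 difference 2.01 ± 0.33 (SE), adjusted p = 0.000688). The estrogen-related receptor genes *Esrrb* and *Esrrg* were both higher in PV. *Esrrb* ranged from 21.5 to 35.9 CPM in PV libraries (median 30.9) and measured 8.66, 11.1, 9.18, 8.72 and 6.92 CPM in SST libraries (log2 difference 1.77 ± 0.15 (SE), adjusted p = 2.25e-06), and *Esrrg* differed by 1.36 on the log2 scale. *Glra1* (1.07), *Gata3* (0.93) and 2 more made up the 8, and *Pax7* (-0.86) and *Otx2* (-0.76) the 2 higher in SST. Without PV 2 or PV 3, 5 were called higher in PV. Across the alternatives 0 to 2 were called higher in SST. The 12 Hox genes of the list were not called, and SST 4 held the least of many, for instance 1.14 CPM of *Hoxb5* against 8.12 to 14.9 CPM in the other SST libraries. In summed level the list read 286, 305, 224, 192 and 273 CPM in SST libraries and 374 to 554 CPM (median 457) in PV libraries. Of 16 hypothalamic genes tested of 20 listed, 6 were called higher in SST and 1, *Six3* (0.87), higher in PV, with a median of -0.89 (-0.45 without SST 1). Their summed level was 117, 83.9, 72.9, 84.9 and 77.2 CPM in SST libraries and 78.7 to 104 CPM (median 90.6) in PV libraries, with overlap. *Otp*, a hypothalamic transcription factor gene, had a median of 1.98 CPM in PV libraries (lowest 0.413, highest 2.86) against 12.7, 10.1, 6.18, 7.41 and 5.92 CPM in SST libraries (log2 difference -2.20 ± 0.35 (SE), adjusted p = 0.000562). *Oxt*, the oxytocin gene, lay between 0.472 and 2.42 CPM across PV libraries, with a median of 1.44, and at 14.3, 3.99, 3.07, 3.45 and 4.97 CPM across SST libraries (log2 difference -1.98), with SST 1 far above the rest. *Glra1* was not called without PV 1, 2 or 3 (adjusted p up to 0.0672). *Glra1* (BR, Y, *Pcp2*), *Pax7* (Z, *Pcp2*), *Otx2* (Z, Y, *Pcp2*) and *Oxt* (Y) lost the call.

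Lists of glial and vascular genes had medians below that of all genes tested (-0.03). Over all genes tested, 8.19% were called higher in SST. Of 15 oligodendrocyte genes 9 were called, each higher in SST (median -0.59), and their summed level was 5646, 3898, 3921, 3413 and 4718 CPM in SST libraries and 2034 to 3175 CPM (median 2626) in PV libraries, without overlap. *Mobp*, a myelin gene, stood at 591, 313, 397, 401 and 430.4 CPM in SST libraries and between 215 and 349.9 CPM, median 257, in PV libraries (log2 difference -0.63 ± 0.16 (SE), adjusted p = 0.0159). Without PV 2 or SST 1, 4 were called higher in SST. Without PV 3, 3 were called higher in SST. Without SST 2, 5 were called higher in SST. Across all alternatives this oligodendrocyte count ran from 1 to 13. Of 13 astrocyte genes, 3 were called, each higher in SST (median -0.41). The astrocyte sum was 4166, 4184, 3492, 3136 and 4524 CPM in SST libraries and 2828 to 3560.2 CPM (median 3284) in PV libraries, with overlap, and *Aldoc* was the most abundant per length, at 229 CPM per kb in PV and 198 in SST. Without SST 1, 1 was called higher in PV. Without PV 5 or SST 2, 1 was called higher in SST. Without SST 4, 6 were called higher in SST. Without PV 3, PV 4 or SST 1, no member was called higher in SST. Of 12 microglia genes, 2 were called higher in SST (median -0.48), with a sum of 216, 188, 186, 150.1 and 202 CPM in SST libraries and 144 to 178 CPM (median 162) in PV libraries. Without PV 1, PV 2, PV 3, PV 4, PV 5, SST 1 or SST 6, 1 was called higher in SST. Of 11 vascular genes, 2 were called higher in SST (median -0.37), with a sum of 145, 112, 117, 96.8 and 113 CPM in SST libraries and 70.8 to 97.4 CPM (median 86.3) in PV libraries, and *Vtn* was the most abundant (9.68 CPM per kb in PV and 12.5 in SST). Without PV 3, PV 4, PV 5, PV 6, SST 1, SST 2, SST 3 or SST 6, 1 was called higher in SST. SST 1 held the highest sum of the oligodendrocyte, microglia and vascular lists. Every marker tested of these 4 lists had counts in each of the 11 libraries. The part of other cells' RNA in the differences toward SST was not tested. *Mobp* (Z) lost the call.

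Voltage-gated potassium channels shape the brief spikes of PV cells. Of 41 genes tested in this family, 14 were called higher in PV and 4 higher in SST (median 0.18). The shares called over all genes tested were 9.86% and 8.19%. Without SST 1 the median was 0.03, and without the 4 libraries with Y-linked counts -0.02. The Kv3 genes, whose channels repolarize spikes fast, divided. *Kcnc1* ranged from 876 to 1076 CPM in PV libraries (median 981) and measured 349.6, 413, 416, 505 and 430.3 CPM in SST libraries (log2 difference 1.20 ± 0.11 (SE), adjusted p = 3.08e-06). *Kcnc2* differed by 0.91 with overlapping groups, and *Kcnc4* went the other way (-0.64). The largest difference was in a silent subunit, which forms channels only together with other Kv proteins: *Kcng4* had a median of 159 CPM in PV libraries (lowest 129, highest 176) against 27.9, 38.4, 41.8, 29.4 and 25.5 CPM in SST libraries (log2 difference 2.27 ± 0.15 (SE), adjusted p = 1.95e-07). *Kcns3*, another silent subunit known from PV cells, lay between 29.6 and 43.1 CPM across PV libraries, with a median of 37.2, and at 12.8, 13.95, 18.2, 18.1 and 14.96 CPM across SST libraries (log2 difference 1.26 ± 0.13 (SE), adjusted p = 1.67e-05), and *Kcns1* differed by 1.17. Among Kv1 genes and their beta subunits, *Kcnab3* stood at 145, 164, 209.6, 199.7 and 213 CPM in SST libraries and between 400.2 and 509 CPM, median 464, in PV libraries (log2 difference 1.28 ± 0.12 (SE), adjusted p = 5.64e-06), and *Kcna1* (0.97), *Kcnab2* (0.78) and *Kcnab1* (0.50) were also higher in PV. *Kcnh2* (0.87) and *Kcnip2* (0.78) were others of the 14. Of the others higher in SST, *Kcna5* differed most (-0.72). Without PV 3, PV 4, PV 5 or SST 4, 2 were called higher in SST. *Kcnab2* was the most abundant of the family per length, at 167 CPM per kb in PV and 97.1 in SST. *Kcna1* was not called without PV 1, 2 or 3 or SST 3 or 4 (adjusted p up to 0.0705). *Kcnc4* (Y), *Kcna1* (Z, BR, Y, *Pcp2*), *Kcnab1* (Z, Y) and *Kcna5* (BR, *Pcp2*) lost the call.

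Of 17 sodium and HCN channel genes, 8 were called higher in PV and 6 higher in SST, against 9.86% and 8.19% of all genes tested (median -0.09). Of the alpha subunits, *Scn1a* (0.60) and *Scn8a* (0.46), the channels of mature fast-firing cells, were higher in PV. *Scn2a* (-0.64), abundant in immature axons, was higher in SST, as were *Scn3a* (-0.68) and *Scn9a* (-1.03). The beta subunits split as well. *Scn4b*, linked to resurgent sodium current, ranged from 554 to 688 CPM in PV libraries (median 664) and measured 359, 411, 349, 342 and 372 CPM in SST libraries (log2 difference 0.82 ± 0.09 (SE), adjusted p = 3.58e-05). *Scn3b* had a median of 76.1 CPM in PV libraries (lowest 67.1, highest 86.9) against 158, 171, 166, 174 and 190.4 CPM in SST libraries (log2 difference -1.17 ± 0.10 (SE), adjusted p = 2.25e-06). Its SST values were all above the highest PV library, the reverse of *Scn4b*. The intracellular FGFs that bind these channels divided too, with *Fgf12* (0.70) higher in PV and *Fgf13* (-0.86) higher in SST. The pacemaker channel genes *Hcn2* (0.62) and *Hcn4* (0.52) were higher in PV. Without PV 4, SST 1, SST 2 or SST 6, 3 were called higher in SST. Across all alternatives 1 to 8 were called higher in PV and 1 to 7 higher in SST. *Scn1a* was not called without PV 1, 2, 3, 4 or 5 or SST 1, 2, 3 or 4 (adjusted p up to 0.0795), and *Scn3a* was not called without PV 2, 3, 4, 5 or 6 or SST 1, 2, 4 or 6 (adjusted p up to 0.116). *Scn9a* was not called without PV 3, 4 or 6 or SST 1, 2 or 6 (adjusted p up to 0.091), and *Fgf12* was not called without PV 3 (adjusted p up to 0.0535). *Scn1a* (Z, BR, Y), *Scn2a* (BR, *Pcp2*), *Scn3a* (BR, Y, *Pcp2*), *Scn9a* (BR, Y, *Pcp2*), *Fgf12* (Z, Y), *Fgf13* (Y, *Pcp2*), *Hcn2* (Y, *Pcp2*) and *Hcn4* (BR, Y, *Pcp2*) lost the call. *Scn8a* lost it only with the replicate number as a block.

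Of 21 genes of the calcium channel list, 2 were called higher in PV and 5 higher in SST, against 9.86% and 8.19% of all genes tested (median -0.18). The 7 encode auxiliary subunits. *Cacna2d2* lay between 159 and 237 CPM across PV libraries, with a median of 190.4, and at 85.5, 128, 130.4, 165 and 115 CPM across SST libraries (log2 difference 0.63 ± 0.15 (SE), adjusted p = 0.011). *Cacng3*, a transmembrane regulator of AMPA receptors, stood at 82.3, 86.4, 90.9, 90.6 and 65.99 CPM in SST libraries and between 42.8 and 58.9 CPM, median 48.6, in PV libraries (log2 difference -0.73 ± 0.12 (SE), adjusted p = 0.000648). *Cacng2*, its relative stargazin, was higher in PV (0.37), and *Cacng4* (-0.82), *Cacnb1* (-0.54) and *Cacnb3* (-0.52) were among those higher in SST. Without PV 4, PV 5, SST 2 or SST 4, 1 was called higher in PV. Among 19 calcium-binding protein genes tested, the called ones beside *Pvalb* were *Cabp1* (0.79), higher in PV, and *Necab1* (-0.98), *Hpcal4* (-0.85) and *Calb2*, higher in SST. *Calb2*, the calretinin gene, ranged from 58.7 to 90.8 CPM in PV libraries (median 77.4) and measured 111, 125, 122, 104 and 81.8 CPM in SST libraries (log2 difference -0.49 ± 0.13 (SE), adjusted p = 0.0171). Without SST 1, 4 were called higher in PV. *Hpcal4*, a neuronal calcium sensor gene, had a median of 275 CPM in PV libraries (lowest 209, highest 334) against 517, 526, 456, 455 and 498 CPM in SST libraries. Neither group overlapped the other for *Hpcal4*, while SST 6 fell within the PV range for *Calb2*. *Cacng2* was not called without PV 4 or 5 or SST 2 or 4 (adjusted p up to 0.069). *Cacna2d2* (Y, *Pcp2*), *Cacng2* (Z, *Pcp2*), *Cacng4* (Y), *Cacnb1* (Y), *Cacnb3* (BR, Y, *Pcp2*) and *Necab1* (BR, Y, *Pcp2*) lost the call.

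Of 34 genes of the release machinery, 7 were called higher in PV, 9 higher in SST and 18 were not called (median -0.09). The shares called over all genes tested were 9.86% higher in PV and 8.19% higher in SST. The summed level of the list was 19224, 19963, 18879.9, 20288 and 17942 CPM in SST libraries and 22559 to 26247 CPM (median 23187) in PV libraries, higher in PV without overlap. *Vamp1*, a synaptic vesicle SNARE gene of fast synapses, lay between 1255 and 1685 CPM across PV libraries, with a median of 1441, and at 560.1, 551, 493, 441 and 369 CPM across SST libraries (log2 difference 1.58 ± 0.13 (SE), adjusted p = 1.21e-06), while *Vamp2* was not called (-0.13). Complexins clamp and trigger release. *Cplx1* stood at 1262, 1286, 1247, 1184 and 866 CPM in SST libraries and between 2456 and 3303 CPM, median 2809.6, in PV libraries (log2 difference 1.29 ± 0.12 (SE), adjusted p = 6.96e-06). *Cplx2* ranged from 1222 to 1998 CPM in PV libraries (median 1378) and measured 2708, 2437, 3142, 3097 and 2559 CPM in SST libraries (log2 difference -0.86 ± 0.15 (SE), adjusted p = 0.000901). The 2 complexin genes thus stood in opposite order in the groups, neither with overlap. Per length, *Cplx1* was the most abundant release gene, at 1302 CPM per kb in PV and 534 in SST. Among synaptotagmins, *Syt2* was higher in PV and *Syt6* (-0.79) and *Syt9* (-0.47) were higher in SST. *Sv2a* (0.44) and *Nsf* (0.46) were among the others higher in PV. *Doc2a*, a calcium sensor of asynchronous and spontaneous release, had a median of 23.4 CPM in PV libraries (lowest 19.2, highest 27.8) against 46.3, 51.7, 61.2, 53.6 and 51.3 CPM in SST libraries (log2 difference -1.18 ± 0.11 (SE), adjusted p = 7.45e-06). *Stx1a* (-0.84) and *Rims3* (-0.60) were also higher in SST. *Syt9* (BR, Y, *Pcp2*) and *Sv2a* (BR, Y, *Pcp2*) lost the call. *Nsf* and *Rims3* lost it only with the replicate number as a block.

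Of 24 peptide precursor genes tested of 26 listed, 15 were called higher in SST and 1, *Pthlh*, higher in PV, with a median of -0.98 against -0.03 over all genes. The shares called over all genes tested were 8.19% higher in SST and 9.86% higher in PV. Summed over the list, the level was 2877, 2847, 2926, 2925 and 1804 CPM in SST libraries and 402 to 583 CPM (median 495) in PV libraries. *Sst* was the most abundant precursor per length, at 158 CPM per kb in PV and 2124 in SST. *Nts*, the neurotensin gene, lay between 3.42 and 5.89 CPM across PV libraries, with a median of 4.499, and at 16.6, 17.1, 15.6, 17.6 and 18.1 CPM across SST libraries (log2 difference -1.88 ± 0.14 (SE), adjusted p = 8.59e-07). *Adcyap1*, which encodes PACAP, stood at 26.6, 22.3, 17.2, 14.5 and 15.96 CPM in SST libraries and between 8.41 and 11.4 CPM, median 9.89, in PV libraries (log2 difference -0.98 ± 0.16 (SE), adjusted p = 0.000687). *Pnoc*, the nociceptin precursor gene, had a log2 difference of -0.85 and *Grp*, the gastrin-releasing peptide gene, one of -1.23. The list's lowest value was in *Ucn3*, the urocortin 3 gene, which ranged from 0 to 0.173 CPM in PV libraries (median 0.0595) and measured 0.673, 2.03, 1.899, 1.88 and 2.91 CPM in SST libraries (log2 difference -4.54). Its PV values came from few reads, so that the size of this difference is loosely set. *Rln1* was of the same kind (-3.13). *Cck* (0.03), *Tac1* and *Trh* (0.27) were not called. *Grp* (BR, Y) lost the call.

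Of 13 genes that process and store peptides, *Chga* (0.94), *Chgb* (0.58) and *Cadps* (0.58) were called higher in PV and *Vgf* (-0.85) higher in SST, and 9 were not called (median -0.10). The shares called over all genes tested were 9.86% higher in PV and 8.19% higher in SST. No member was called beyond total RNA in the fit given below. *Chga*, the chromogranin A gene, had a median of 636 CPM in PV libraries (lowest 524, highest 827) against 255, 378, 445, 419.8 and 250.2 CPM in SST libraries (log2 difference 0.94 ± 0.17 (SE), adjusted p = 0.00175). *Cpe*, the carboxypeptidase that trims peptide precursors, lay between 2135 and 2544 CPM across PV libraries, with a median of 2212, and at 2488, 2462, 2329.7, 2033 and 2287 CPM across SST libraries, the most abundant of the list per length, and was not called. Without SST 1, 2 were called higher in SST. *Chgb* was not called without PV 3 or SST 2 (adjusted p up to 0.0554). *Chgb* (BR, Y, *Pcp2*), *Cadps* (Y) and *Vgf* (Z, Y, *Pcp2*) lost the call.

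The *Sst* promoter is a textbook example of one with a cAMP response element (CRE), and it is shown for the gene that names the SST group. Both elements given here were chosen after the values were seen. The CRE was searched as TGACGTCA, which reads the same on both strands, in RefSeq promoter windows of 300 bases (250 before to 50 after the gene start, GRCm38.p6). It occurred in 588 of 32851 windows (1.79%), in 392 of 11360 tested genes with a window (3.45%) and in 24 of 920 called higher in SST (2.61%), against 35 of 1145 called higher in PV (3.06%). Of the genes called at least 2-fold higher, 3 of 212 for SST (1.42%) and 4 of 189 for PV (2.12%) held it. Capitals mark the match in the window of *Sst* at chr16:23890795-23891094, minus strand, 48 bases before the RefSeq gene start that the window uses. By the coordinates given above for *Sst*, which are those of GENCODE, the gene starts further upstream and the match lies inside it.
Sst: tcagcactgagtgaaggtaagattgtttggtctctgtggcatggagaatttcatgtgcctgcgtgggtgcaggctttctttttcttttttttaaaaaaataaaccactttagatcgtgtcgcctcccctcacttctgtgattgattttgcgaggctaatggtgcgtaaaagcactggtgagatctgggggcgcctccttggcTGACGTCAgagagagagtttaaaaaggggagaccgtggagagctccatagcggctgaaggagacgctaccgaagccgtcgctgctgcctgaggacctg
Of 21 neuropeptide precursor genes with a window, 2 held the CRE, *Sst* and *Cartpt*, and of 11 genes of dense-core vesicles 3 did, *Chgb*, *Pcsk1* and *Scg2*. Of 64 oxidative phosphorylation genes with a window 5 held it. Since the estrogen-related receptor genes and *Ppargc1a* were higher in PV, the element these receptors bind (ERRE), searched as TCAAGGTCA on both strands, was counted as well and found in 139 windows (0.423%) and in 42 of the 11360 tested genes with a window (0.37%). The genes called higher in PV held 8 in 1145 (0.699%) and those called higher in SST 3 in 920 (0.326%). Among genes at least 2-fold higher the order was the reverse, 1 in 189 for PV (0.529%) and 2 in 212 for SST (0.943%). Of the 64 oxidative phosphorylation genes 2 held the ERRE, *Atp5g3* and *Sdhd*, and of the PV interneuron genes *Syt2* did. Its window is chr1:134646362-134646661, plus strand, with the match, on the other strand, in capitals.
Syt2: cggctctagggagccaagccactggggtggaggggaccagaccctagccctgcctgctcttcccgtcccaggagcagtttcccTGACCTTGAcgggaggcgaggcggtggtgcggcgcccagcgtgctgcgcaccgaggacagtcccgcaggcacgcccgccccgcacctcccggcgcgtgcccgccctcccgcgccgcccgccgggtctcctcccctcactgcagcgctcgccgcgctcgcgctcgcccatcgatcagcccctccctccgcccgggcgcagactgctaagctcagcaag
A match is a run of letters and no measure of binding, and whether a set held more matches than other genes was not tested.

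The list of receptors for peptides and modulators held 46 genes, among them the binding protein gene *Crhbp*. Of these, 1, *Crhr1* (0.42), was called higher in PV, 16 were called higher in SST and 29 were not called (median -0.34). Over all genes tested, the shares called were 9.86% and 8.19% in the respective directions. *Oxtr*, the oxytocin receptor gene, stood at 23.5, 33.6, 37.8, 38.7 and 22.1 CPM in SST libraries and between 10.2 and 12.7 CPM, median 11.1, in PV libraries (log2 difference -1.47 ± 0.15 (SE), adjusted p = 1.5e-05). *Htr1a*, a serotonin receptor gene, ranged from 12.2 to 14.95 CPM in PV libraries (median 13.04) and measured 33.8, 36.7, 28.6, 33.3 and 32.5 CPM in SST libraries (log2 difference -1.30 ± 0.10 (SE), adjusted p = 1.08e-06). *Npy2r*, a receptor gene for neuropeptide Y, had a median of 10.4 CPM in PV libraries (lowest 6.25, highest 11.8) against 19.4, 21.96, 15.97, 21.97 and 29.5 CPM in SST libraries (log2 difference -1.13 ± 0.18 (SE), adjusted p = 0.000547). No PV library reached any SST library for these 3 genes. *Tacr1*, the substance P receptor gene, lay between 12.6 and 14.99 CPM across PV libraries, with a median of 14.6, and at 24.1, 30.6, 32.5, 32.2 and 19.96 CPM across SST libraries (log2 difference -0.97 ± 0.13 (SE), adjusted p = 0.000168). Somatostatin's own receptors *Sstr1* (-0.96) and *Sstr2* (-0.81) were higher in SST, as were *Chrm3* (-0.76), *Ntsr1* (-0.78), *Adra2a* (-0.54) and *Htr7* (-0.44). *Oprd1*, the delta opioid receptor gene of PV cells, stood at 3.77, 11.96, 12.6, 28.5 and 14.1 CPM in SST libraries and between 16.6 and 43.2 CPM, median 29.5, in PV libraries, and was not called (log2 difference 1.03, adjusted p = 0.0716). Without PV 2, 2 were called higher in PV. Without SST 3, 3 were called higher in PV. Without PV 3, PV 4, PV 5, PV 6 or SST 2, no member was called higher in PV. *Crhbp* was the most abundant gene of the list per length (39.1 CPM per kb in PV and 77.6 in SST). *Crhr1* was not called without PV 3, 4, 5 or 6 or SST 1, 2, 4 or 6 (adjusted p up to 0.0977), and *Oprd1* was called without SST 4 (adjusted p down to 0.0123). *Crhr1* (Z, BR, *Pcp2*), *Sstr1* (Z), *Adra2a* (*Pcp2*) and *Htr7* (BR, Y, *Pcp2*) lost the call.

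Of 32 glutamate receptor and auxiliary genes, 8 were called, each higher in SST, against 8.19% of all genes tested (median -0.22). Beyond *Grin3a* these were kainate receptor and auxiliary genes and 2 metabotropic receptors. *Grik1* ranged from 17.1 to 23.3 CPM in PV libraries (median 20.5) and measured 26.1, 36.1, 42.7, 47.9 and 40.4 CPM in SST libraries (log2 difference -0.92 ± 0.14 (SE), adjusted p = 0.000538). *Neto1*, an auxiliary subunit of kainate receptors, had a median of 70.1 CPM in PV libraries (lowest 40.5, highest 79.7) against 127, 138, 70.3, 123 and 162 CPM in SST libraries (log2 difference -0.89 ± 0.20 (SE), adjusted p = 0.00546). *Cnih3*, an AMPA receptor auxiliary gene, lay between 30.7 and 43.7 CPM across PV libraries, with a median of 35.2, and at 76.3, 51.96, 46.5, 51.1 and 52.2 CPM across SST libraries (log2 difference -0.64 ± 0.14 (SE), adjusted p = 0.00435). *Cnih2* (-0.80) was another. No AMPA receptor subunit was called, and *Gria1*, the most abundant per length, stood at 85.1 CPM per kb in PV and 96.2 in SST. *Gria4*, an AMPA subunit gene enriched in PV cells, had a log2 difference of 0.44 (adjusted p = 0.0541). Without PV 6 or SST 6, 1 was called higher in PV. Without PV 3, PV 4, PV 5 or SST 2, 5 were called higher in SST. *Gria4* was called without PV 6 or SST 6 (adjusted p down to 0.0162). *Neto1* (Y, *Pcp2*), *Cnih3* (Y) and *Cnih2* (BR, Y) lost the call.

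Of 24 inhibitory receptor genes, 4 were called higher in PV and 5 higher in SST, against 9.86% and 8.19% of all genes tested (median -0.02). *Gabrd*, the delta subunit of extrasynaptic GABA-A receptors, stood at 51.7, 82.03, 89.8, 79.7 and 57.9 CPM in SST libraries and between 123 and 158 CPM, median 146, in PV libraries (log2 difference 0.999 ± 0.14 (SE), adjusted p = 0.000263). *Gabra2* ranged from 73.3 to 199 CPM in PV libraries (median 153) and measured 264, 271, 212, 264 and 436 CPM in SST libraries (log2 difference -0.999 ± 0.24 (SE), adjusted p = 0.0109). Its groups did not overlap, and PV 6 was the lowest PV library. *Gabrg3* (0.58) and the glycine receptor gene *Glra1* (1.07) were among the others higher in PV, and *Gabre* (-1.56), *Gabrq* (-0.92) and *Glra2* (-0.79) were among the others higher in SST. *Slc12a5*, the chloride exporter gene, had a median of 813 CPM in PV libraries (lowest 766, highest 923) against 535, 728, 756, 717 and 645 CPM in SST libraries, and was not called (adjusted p = 0.0733). Without PV 2 or PV 3, 2 were called higher in PV. *Slc12a5* was called without SST 3 (adjusted p down to 0.0446). *Gabra2* (Z), *Gabrg3* (Z), *Gabre* (Y), *Gabrq* (Y, *Pcp2*) and *Glra2* (BR, Y, *Pcp2*) lost the call.

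Perineuronal nets wrap PV cells. Of the 15 net genes tested 4 were called, each higher in PV, against 9.86% of all genes tested. The list median was 0.06, or -0.04 with library totals as the scaling. Beside *Acan* and *Adamts8* the called members were link protein genes. *Hapln4* lay between 601 and 795 CPM across PV libraries, with a median of 671, and at 242, 278, 252, 214 and 167 CPM across SST libraries (log2 difference 1.59 ± 0.14 (SE), adjusted p = 2.22e-06), and it was the most abundant net gene per length (177 CPM per kb in PV and 58.8 in SST). *Hapln1* stood at 19.7, 19.6, 8.400, 14.9 and 23.4 CPM in SST libraries and between 16.8 and 58.04 CPM, median 43.9, in PV libraries (log2 difference 1.25 ± 0.29 (SE), adjusted p = 0.00725), with PV 6 as the lowest PV library and SST 3 as the lowest SST library. *Bcan* (0.30), *Ncan* (-0.15) and *Tnr* (-0.19), which glia also make, were not called. Without PV 6 or SST 3, 1 was called higher in SST. Of 51 genes of synaptic adhesion and axon guidance, 5 were called higher in PV and 7 higher in SST, against 9.86% and 8.19% of all genes tested (median -0.10). *Cbln1*, a synapse organizer gene, ranged from 58.3 to 111 CPM in PV libraries (median 73.1) and measured 39.3, 39.1, 39.5, 32.7 and 31.8 CPM in SST libraries (log2 difference 1.09 ± 0.16 (SE), adjusted p = 0.000295), while its relatives *Cbln2* (-0.70) and *Cbln4* (-0.42) were higher in SST. *Cntnap4*, a neurexin-related gene of interneuron terminals, had a median of 88.3 CPM in PV libraries (lowest 79.5, highest 109.7) against 28.1, 49.7, 43.5, 48.9 and 44.5 CPM in SST libraries (log2 difference 1.07 ± 0.15 (SE), adjusted p = 0.000171). *Cdh9* (-1.15), *Cdh13* (-0.95), and *Epha5* (-0.56) joined *Elfn1* on the SST side, and *Erbb4* was on the PV side. Without PV 1, PV 2 or PV 3, 3 were called higher in PV. *Bcan* was called without SST 3 (adjusted p down to 0.0333), and *Cbln4* was not called without SST 2 (adjusted p up to 0.0536). *Hapln1* (Z, Y), *Cbln2* (Y, *Pcp2*), *Cbln4* (BR, Y, *Pcp2*) and *Epha5* (Z, *Pcp2*) lost the call.

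Of 78 genes of oxidative phosphorylation, 61 were called, each higher in PV (median 0.64), against 9.86% of all genes tested. Their summed level was 14363, 14709, 16446, 14398 and 11754 CPM in SST libraries and 18913 to 24492 CPM (median 23493) in PV libraries, without overlap. *Atp5a1*, the alpha subunit of ATP synthase and the most abundant member per length, lay between 1958 and 2287 CPM across PV libraries, with a median of 2058, and at 848, 1261, 1348, 1263 and 952 CPM across SST libraries (log2 difference 0.87 ± 0.12 (SE), adjusted p = 0.000235). *Cycs*, the cytochrome c gene, stood at 212, 183, 149.9, 158 and 133 CPM in SST libraries and between 276 and 455 CPM, median 328, in PV libraries (log2 difference 1.05 ± 0.15 (SE), adjusted p = 0.0002). *Ndufs8*, a core subunit of complex I, ranged from 116 to 170.2 CPM in PV libraries (median 155) and measured 84.2, 85.8, 95.97, 82.4 and 52.9 CPM in SST libraries (log2 difference 0.89 ± 0.15 (SE), adjusted p = 0.000753). For these 3 genes every PV library exceeded every SST library. Apart from *Cox6a2* and *Cycs* the called members differed by less than 2-fold. Without the 3 PV libraries with over 10 CPM of *Pcp2*, 33 members were called higher in PV, and with the replicate number as a block 19. Of 24 genes of glycolysis and lactate handling, 12 were called higher in PV and 1 higher in SST (median 0.39). The shares called over all genes tested were 9.86% and 8.19%. The lactate dehydrogenase genes were the extremes of the list. *Ldhb*, whose subunit favors lactate use, had a median of 2184 CPM in PV libraries (lowest 1865, highest 2340.0) against 641, 886, 972, 882 and 657 CPM in SST libraries (log2 difference 1.404 ± 0.13 (SE), adjusted p = 3.58e-06). *Ldha* lay between 130.2 and 205 CPM across PV libraries, with a median of 165, and at 205, 257, 288, 238 and 219.9 CPM across SST libraries (log2 difference -0.53 ± 0.13 (SE), adjusted p = 0.0118). *Ckb*, the brain creatine kinase gene, stood at 1443, 1814, 2122, 1861 and 1469.6 CPM in SST libraries and between 2785 and 3912 CPM, median 3372, in PV libraries (log2 difference 0.94 ± 0.12 (SE), adjusted p = 0.00011). *Pgk1* (0.84), *Pkm* (0.73) and *Gapdh* (0.70) were among the others higher in PV. Without the same 3 PV libraries 7 of the list were called higher in PV. *Ldha* (Z, Y, *Pcp2*) lost the call.

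Of 17 activity-regulated genes 5 were called in the full comparison, each higher in SST (median -0.61), against 8.19% of all genes tested. The summed level of the 17 averaged 353 CPM in PV IPs, 528 in SST IPs, 634 in PV-line and 687 in SST-line total RNA. Total RNA was scaled apart from the IPs, and no member was called beyond it in the fit given below. *Egr1* ranged from 27.4 to 55.6 CPM in PV libraries (median 38.6) and measured 70.5, 75.8, 89.4, 104 and 83.4 CPM in SST libraries (log2 difference -1.10 ± 0.16 (SE), adjusted p = 0.000306). *Fos* had a median of 6.87 CPM in PV libraries (lowest 4.27, highest 8.96) against 5.91, 12.8, 21.4, 20.4 and 23.4 CPM in SST libraries (log2 difference -1.30 ± 0.28 (SE), adjusted p = 0.00546). *Fosb* (-0.93), *Junb* (-0.81) and *Nr4a1* (-1.07) were the other 3. Without the SST libraries of Z mice *Egr1* was still called (-0.90), while *Fos* (-0.46), *Fosb* (-0.73), *Junb* (0.11) and *Nr4a1* (0.16) were not. The SST libraries themselves divided: *Nr4a1* read 18.6, 24.1, 74.5, 68.1 and 67.8 CPM and *Arc* 29.97, 33.6, 122, 105 and 88.3 CPM, in both cases with SST 1 and SST 2, the libraries of BR mice, below the Z mice. In PV libraries *Arc* ranged from 26.6 to 71.9 CPM, and it was not called (adjusted p = 0.148). Without PV 2, PV 3, PV 4, PV 5, SST 4 or SST 6, 3 were called higher in SST. Without SST 1, 8 were called higher in SST. Without the SST libraries of Z mice 2 members were called higher in SST and 1 higher in PV, with a median of -0.17, and without those of BR mice 10 were. *Junb* was not called without PV 1, 2, 3, 4 or 5 or SST 3, 4 or 6 (adjusted p up to 0.0979), and *Nr4a1* was not called without PV 2, 3, 4 or 5 or SST 3, 4 or 6 (adjusted p up to 0.093). *Arc* was called without SST 1 (adjusted p down to 0.0473). *Junb* (*Pcp2*) and *Nr4a1* (*Pcp2*) lost the call.

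Of 21 growth factor genes, 6 were called higher in PV and 3 higher in SST (median 0.08, or -0.03 with library totals as the scaling). The shares called over all genes tested were 9.86% and 8.19%. *Nog*, the gene of the BMP antagonist noggin, lay between 23.1 and 38.3 CPM across PV libraries, with a median of 28.9, and at 9.31, 8.705, 7.72, 10.3 and 9.59 CPM across SST libraries (log2 difference 1.71 ± 0.14 (SE), adjusted p = 1.24e-06). *Ret*, the receptor tyrosine kinase of GDNF family ligands, stood at 25.2, 38.5, 35.8, 31.6 and 32.9 CPM in SST libraries and between 47.6 and 60.1 CPM, median 54.4, in PV libraries (log2 difference 0.73 ± 0.12 (SE), adjusted p = 0.000613). Both were without overlap, and *Ntf3* (1.32), *Ngfr* (0.87) and *Gfra1* (0.42) were also higher in PV. *Bdnf* ranged from 5.99 to 11.2 CPM in PV libraries (median 7.703) and measured 13.99, 10.1, 6.14, 10.1 and 12.02 CPM in SST libraries, and was not called. Without SST 2, 1 was called higher in SST. Without PV 3, PV 4 or SST 6, no member was called higher in SST. In the nitric oxide and cGMP pathway, 1 of 12 genes was called higher in PV and 2 higher in SST, near the shares of all genes tested (median -0.01). *Nos1*, the neuronal nitric oxide synthase gene, had a median of 97.3 CPM in PV libraries (lowest 85.6, highest 119) against 88.8, 163, 193, 241 and 142 CPM in SST libraries (log2 difference -0.75 ± 0.19 (SE), adjusted p = 0.0146), with SST 1 within the PV range. *Nos1* was not called without the SST libraries of Z mice (-0.37), without the 3 PV libraries with over 10 CPM of *Pcp2* (-0.81) or with the replicate number as a block (-0.68). *Pde5a*, a phosphodiesterase that breaks down cGMP, lay between 23.2 and 41.9 CPM across PV libraries, with a median of 37.4, and at 8.54, 11.9, 7.08, 9.05 and 14.3 CPM across SST libraries (log2 difference 1.78 ± 0.19 (SE), adjusted p = 2.07e-05). *Pde1a* was the other gene higher in SST (-0.50). Without PV 3 or SST 6, 1 was called higher in SST. *Bdnf* was called without SST 3 (adjusted p down to 0.0442), and *Pde1a* was not called without PV 3 or SST 6 (adjusted p up to 0.0548). *Ntf3* (Z, *Pcp2*), *Gfra1* (Z, Y, *Pcp2*) and *Pde1a* (Z, *Pcp2*) lost the call.

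**Figure D3:**
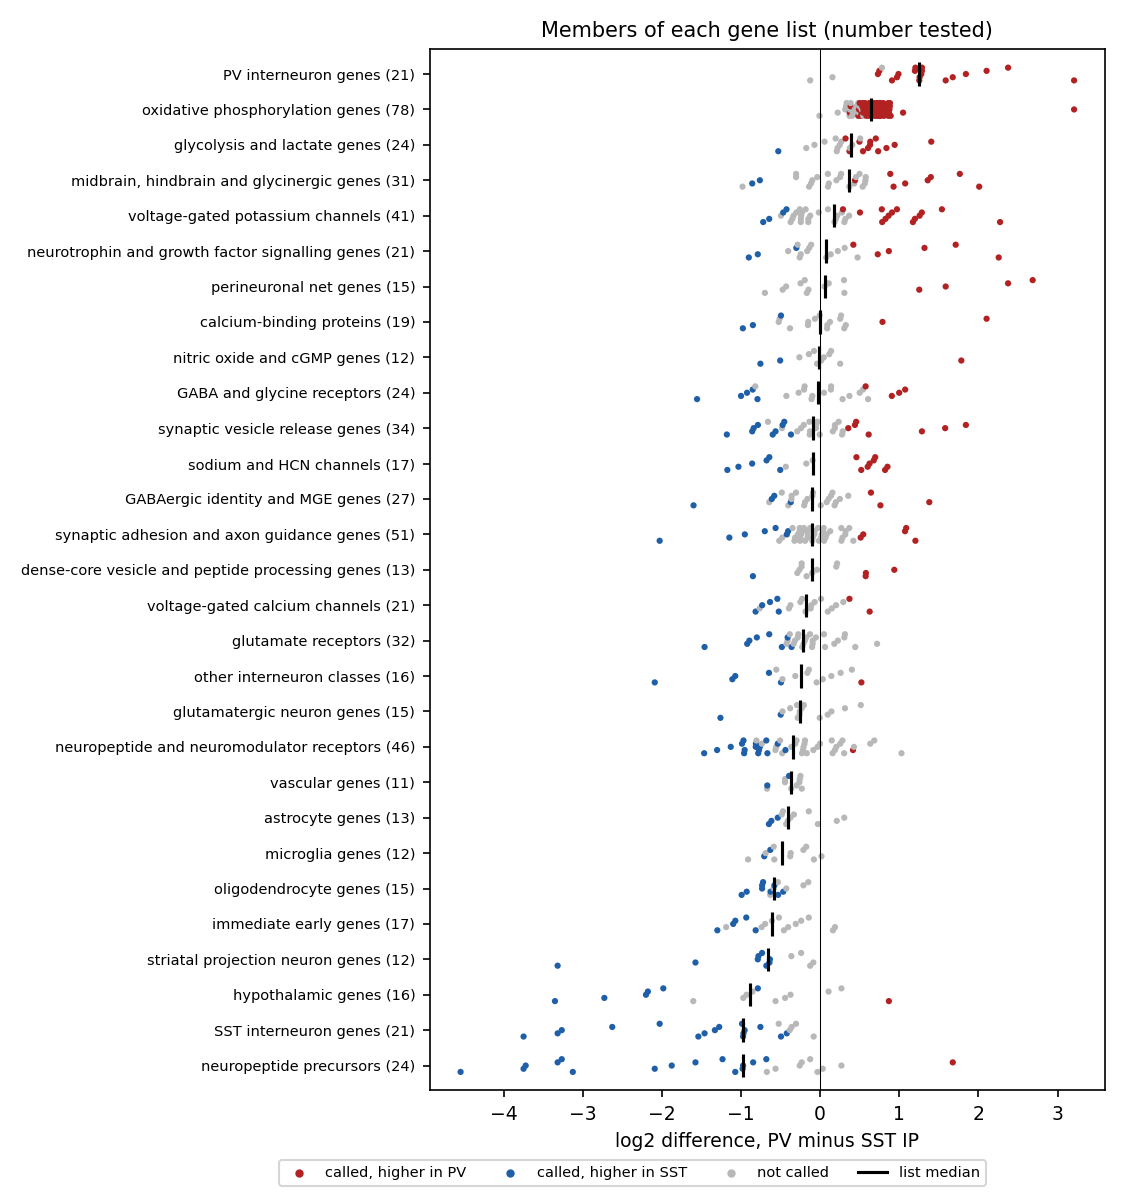
Each point is a tested member of a gene list, placed by its log2 difference, PV minus SST, in the control IPs; red and blue mark members called higher in PV and in SST, gray those not called, and black bars the list medians. The list medians run from -0.98 for neuropeptide precursors to 1.25 for PV interneuron genes.

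The same contrast in total RNA asks whether the tissue of the lines differed. Of 14791 genes tested in 3 PV-line and 4 SST-line libraries, 0 were called by edgeR (0%), with 66 at an unadjusted p under 0.05. These 66 are fewer than chance alone would give. A lack of calls in this test does not show that the tissue was the same. DESeq2 called 2, *2210418O10Rik* and *Gcat*, named after their values were seen. *Pvalb* in total RNA read 82.2, 77.4 and 139 CPM in the PV line and 312, 152, 148 and 131 CPM in the SST line, and *Sst* 212, 256 and 423 CPM in the PV line and 148, 154, 137 and 111 CPM in the SST line. For both genes the order of the group means was thus the reverse of that in the IPs, without a call (log2 difference -0.90 and adjusted p = 1 for *Pvalb*, 1.11 and 1 for *Sst*). For *Sst* every PV-line library exceeded every SST-line library. Over the 2635 genes called in the IPs, the median size of the total RNA difference was 0.11 on the log2 scale, against 0.13 over all genes tested there.

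A fit with both preparations tested whether the PV to SST ratio in IPs differed from that in total RNA. Some mice gave both kinds of library, and this fit held no term for the mouse. Of 14769 genes, 477 (3.23%) were called, 240 toward PV and 237 toward SST, and all 477 were also called in the IPs in the same direction. *Pvalb* (2.99 on the log2 scale beyond total RNA) and *Sst* (-4.87) were among them. The 24 genes with the largest differences, 12 in each direction, were all called here too. Since they were chosen from the same IP libraries that this fit uses, this is no separate test. By list, 12 of the PV interneuron genes, 11 of the SST interneuron genes and 10 of the neuropeptide precursors were called, but 5 of the 78 oxidative phosphorylation genes and no oligodendrocyte gene. With only the mice that gave both kinds of library, and the mouse as a block, 110 genes were called.

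The contrast was then read in HD mice, whose libraries are separate from the controls. All 4 HD SST mice have BR codes, against 2 of the 5 control SST mice. Of 14871 genes tested in 5 PV and 4 SST libraries, 2234 (15%) were called, 1109 higher in PV and 1125 higher in SST. Without HD PV replicate 1 the count was 1144, and without HD SST replicate 2 it was 1469. Leaving out HD SST replicate 1 or 2 gave 698 genes higher in PV, and leaving out HD PV replicate 1 gave 591 higher in PV and 553 higher in SST. Of the 2635 genes called in controls 2630 were tested in HD, 2625 of them with the same sign, and 1604 were called in the same direction. These are 60.9% of the control calls and 71.8% of the HD calls. Across 14558 genes tested in both, which are not independent replicates, the log2 differences had a Pearson correlation of 0.82 and a Spearman correlation of 0.85. *Pvalb* differed by 2.09 and *Sst* by -3.86 in HD on the log2 scale, and the 24 genes with the largest control differences were all called in HD. Oligodendrocyte genes had a median of -0.998 in HD, with 12 called higher in SST, and oxidative phosphorylation genes one of 0.48, with 22 called higher in PV.

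**Figure D4:**
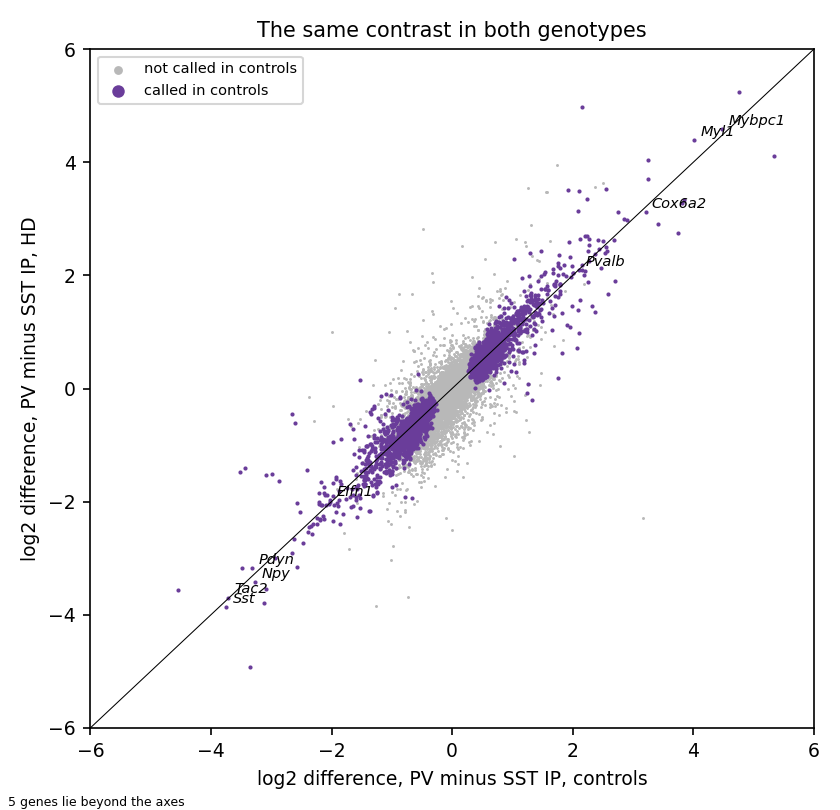
Each point is a gene tested in both genotypes, with its log2 difference, PV minus SST IP, in controls against that in HD, the line marking equal values. Genes called in controls (purple) lie along the line, and 2625 of 2630 had the same sign in both, and 5 genes lie beyond the axes.

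Whether the PV to SST difference itself depended on genotype was tested by an interaction term. Of 14724 genes, 0 were called by edgeR (0%), with 137 at an unadjusted p under 0.05, and DESeq2 called 1, *mt-Nd3*, named after its values were seen. Mouse code and genotype partly coincide among the SST libraries, as 3 control mice and no HD mouse have Z codes. Without these 3 libraries edgeR again called none. A p that misses the threshold does not show that the difference was the same in both genotypes.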

How the data were processed

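The deposited table holds estimated counts per gene for 106 libraries, which the authors made from RNA sequencing reads, with spike-in transcripts. The values were rounded to whole counts, and spike-ins and genes other than protein-coding ones were left out. Where the libraries of a comparison averaged more than 10 counts, a gene was tested with edgeR 4.0.16 (TMM, quasi-likelihood fit and test) in R 4.3.3, and p-values were adjusted by Benjamini and Hochberg over all genes tested. DESeq2 1.42.0 served as another test. Collation used Python 3.11.15 with pandas 2.3.3, numpy 2.4.6 and matplotlib 3.10.9. The fit was tested on simulated data.

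Named genes were *Pvalb*, *Sst* and *Rpl22*, the 12 genes in each direction with the largest log2 differences among called genes without overlap and with at least 10 CPM in the higher group, and list members: extremes, the most abundant and those needed to describe a family. Members and the 30 lists were chosen with earlier results of these data known. Some list members are not reported here. Promoters are from RefSeq (GRCm38.p6). Alternatives covered the test, normalization, filter, gene types, pairing, sex, mouse codes, depth and single libraries.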

Additional observations from a re-analysis of the deposited data

Results flagged for a closer look

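A level lay far from those of the other libraries of its group, by Dixon's criterion, in 31 of the 424 groups of libraries tested over all named genes. Chance alone marks about 1 in 20 groups. The values are TMM-normalized CPM, and their causes were not tested. PV 6 held 10 of these values, more than any other library, with *Zcchc12* at 56.1, *Bcan* at 211, *Cacnb1* at 78.8, *Cacng4* at 91.9, *Cadps* at 359 and *Cnih2* at 86.8. The remaining values of PV 6 were *Fgf13* at 39.5, *Necab1* at 21.1, *Neto1* at 40.5 and *Tcf7l2* at 16.2. In SST 6 the values apart were *Sst* at 966, *Lrrc38* at 1.68, *Ift27* at 11.9, *Npy* at 269, *Cplx1* at 866, *Gabra2* at 436 and *Gabrq* at 31.2. PV 2 stood apart from its group with *Myh4* at 3.07, *Calb1* at 337 and *Gabra6* at 29.3. For PV 3 the values apart were *Cbln4* at 32.6, *Gapdh* at 4943 and *Scg2* at 655. SST 1 was the library apart for *Cnih3* at 76.3, *Cntnap4* at 28.1 and *Oxt* at 14.3. In SST 3 the values apart were *Chodl* at 6.28, *Glra2* at 16.7 and *Kcnab1* at 103. PV 1 stood apart from its group with *Cpe* at 2544 and *Syt6* at 33.2. No gene passed edgeR's test of the difference between genotypes, with 137 at an unadjusted p under 0.05 and 1 called by DESeq2.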

How the results depend on the processing

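Of the 27 alternatives to the control comparison, every gene called both in the comparison and in an alternative kept its direction, and *Pvalb*, *Sst* and the 24 genes with the largest differences were called in all 27. The 24 were chosen from the same libraries that the alternatives use in whole or in part, so this is no separate test. Leaving out single libraries gave 1853 to 2746 called genes. DESeq2 called 3295, and no filter on low counts gave 2449. With the replicate number as a block, 828 genes were called, 498 higher in PV and 330 higher in SST; that the numbers pair mice is not stated, and the correlations of residuals between 5 pairs ran from -0.44 to 0.07. Library totals as the scaling gave 2877, 1026 higher in PV and 1851 higher in SST, and shifted the median of all genes by -0.10, so the split between the directions depended on the scaling. Among the alternatives chosen after seeing the data, leaving out the 3 PV libraries with over 10 CPM of *Pcp2* gave 1176 (684 higher in PV, 492 higher in SST), leaving out the 4 libraries with Y-linked counts 1870, and leaving out PV 6 and SST 3, apart on the second principal component, 2912. Without the *Pcp2* libraries *Gabra6* had a log2 difference of -2.98, and without the SST libraries of Z mice *Junb* had one of 0.11 and *Nr4a1* one of 0.16.

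In total RNA DESeq2 called 2 genes, 1 in each direction and both at least 2-fold. Beyond total RNA, DESeq2 called 771 (392 toward PV, 379 toward SST) and the fit with the mouse as a block 110 (66 and 44), with at least a 2-fold difference in 392 of the 771 and in all 110. In HD the replicate block gave 1219 (630 higher in PV, 589 higher in SST), and leaving out single libraries gave 1144 to 2865 (591 to 1576 and 553 to 1289). By genotype, DESeq2 called 1 gene, with a positive interaction term of at least 2-fold. The causes of these changes were not tested.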

Other observations

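Hemoglobin genes, chosen after their values were seen, were high in a single SST library. *Hbb-bs*, a beta-globin gene, read 10.8, 25.95, 15.8, 31.04, 27.5 and 27.1 CPM in PV 1 to PV 6 and 893, 18.04, 36.6, 13.3 and 16.3 CPM in SST libraries. *Hba-a1*, an alpha-globin gene, read 2.45, 8.32, 4.22, 10.3, 9.87 and 13.2 CPM in PV 1 to PV 6 and 411, 7.74, 12.8, 3.15 and 1.51 CPM in SST libraries. SST 1 was far above all other libraries for both genes, and the other SST libraries overlapped the PV libraries. *Ppp1r17*, a further gene of Purkinje cells and also chosen after its values were seen, read 2.301, 58.8, 3.19, 11.01, 3.34 and 17.8 CPM in PV 1 to PV 6 and 0.98, 2.96, 1.096, 2.45 and 0.959 CPM in SST libraries, highest in PV 2, PV 6 and PV 4, as *Pcp2* was.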
